A study of Mus musculus with 15 samples.

Results

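Cultured mouse mammary epithelial cells that lack p53 and Rb and were given a MYC retrovirus were compared with cells that lack both genes and are labelled without the virus. The comparison rests on 6 of the 15 arrays of the series, 3 titled p53- Rb- Myc+ and 3 titled p53- Rb-, picked by their titles. Per the labels, the cells came from 8-week-old female mice and grew in a medium with serum, EGF, insulin, cholera toxin and hydrocortisone. Cre recombinase from an adenovirus removed p53 and Rb in both groups, so both deletions are shared, and the labels separate the groups by the MYC retrovirus alone. RNA was taken from dividing cultures. The labels do not say whether the cells without MYC received an empty retrovirus, whether a group is a pool or a single selected culture, or whether its 3 samples came from separate animals or cultures. The p-values therefore measure the spread between these samples, which may be partly technical. The p53- Rb- arrays are called control arrays here, and the p53- Rb- Myc+ arrays are called Myc+ arrays.

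MYC is a transcription factor that pairs with MAX, binds the E-box CACGTG and is known for driving genes of ribosome production, nucleotide synthesis and cell growth. Rb holds back E2F factors and so the entry into S phase, and p53 arrests or kills stressed cells, so cells without either have lost a pair of brakes that MYC meets in normal cells. Mammary epithelium is built of luminal cells, which line the ducts and make milk, and basal cells, which contract and touch the basement membrane. Both kinds are joined by E-cadherin and keratin-anchored junctions.

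Transcripts were read as probe set intensities, the linear brightness values that the submitters deposited, on Affymetrix Mouse Gene arrays, and 19938 genes had a probe set with a single gene name. The number of arrays limits the precision. Across these genes, arrays of a group correlated at r between 0.974 and 0.989 among control arrays and between 0.976 and 0.984 among Myc+ arrays, and arrays of different groups at r between 0.826 and 0.857. The lower quartile of the 19938 gene intensities lay between 24.13 and 26.96 on control arrays and between 24.82 and 28.37 on Myc+ arrays, and an intensity below it is called low here because the files hold no detection calls. The labels do not all match the values. The mouse Myc probe set fell by 2.95 ± 0.17 (SE) on the log2 scale in the Myc+ arrays (adjusted p = 2.31e-12), and the sources used here give neither the species of the MYC insert nor the part of Myc that the probes cover, so this probe set does not check the virus. Rb1, labelled deleted in both groups, read 52.7, 55.3 and 64.2 on the control arrays and 19.98, 18.3 and 17.9 on the Myc+ arrays, and fell by 1.08 ± 0.16 (adjusted p = 1.5e-05). The cell type label fits the control arrays, whose means were 4362 for Krt18, 2154 for Krt14, 1682 for Epcam and 1651 for Cdh1, but not the Myc+ arrays, where the same 4 epithelial markers averaged 23.9, 21.7, 11.6 and 15.2 and were low.

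Differences are log2 fold changes of the intensity plus 16, Myc+ minus control, with their standard error. A gene rose or fell where its Benjamini-Hochberg adjusted p over all genes was under 0.05 in limma's moderated test. Of 19938 genes, 7246 (36.3%) passed: 3518 rose (17.6%) and 3728 fell (18.7%). The falls were larger than the rises. Of the genes that fell, 1888 did so at least 2-fold and 259 at least 8-fold, against 662 and 9 of the genes that rose. The 3 Myc+ arrays lay entirely above or below the 3 control arrays in 10212 genes (51.2%), above in 5697 (28.6%) and below in 4515 (22.6%). The median of all genes was 0.12, so a gene at 0 lies slightly under the typical gene. The scaling moved the balance of the calls: as deposited, 48.5% of the passing genes rose, and with each array centred on its median over genes 57.1% did.

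**Figure D1:**
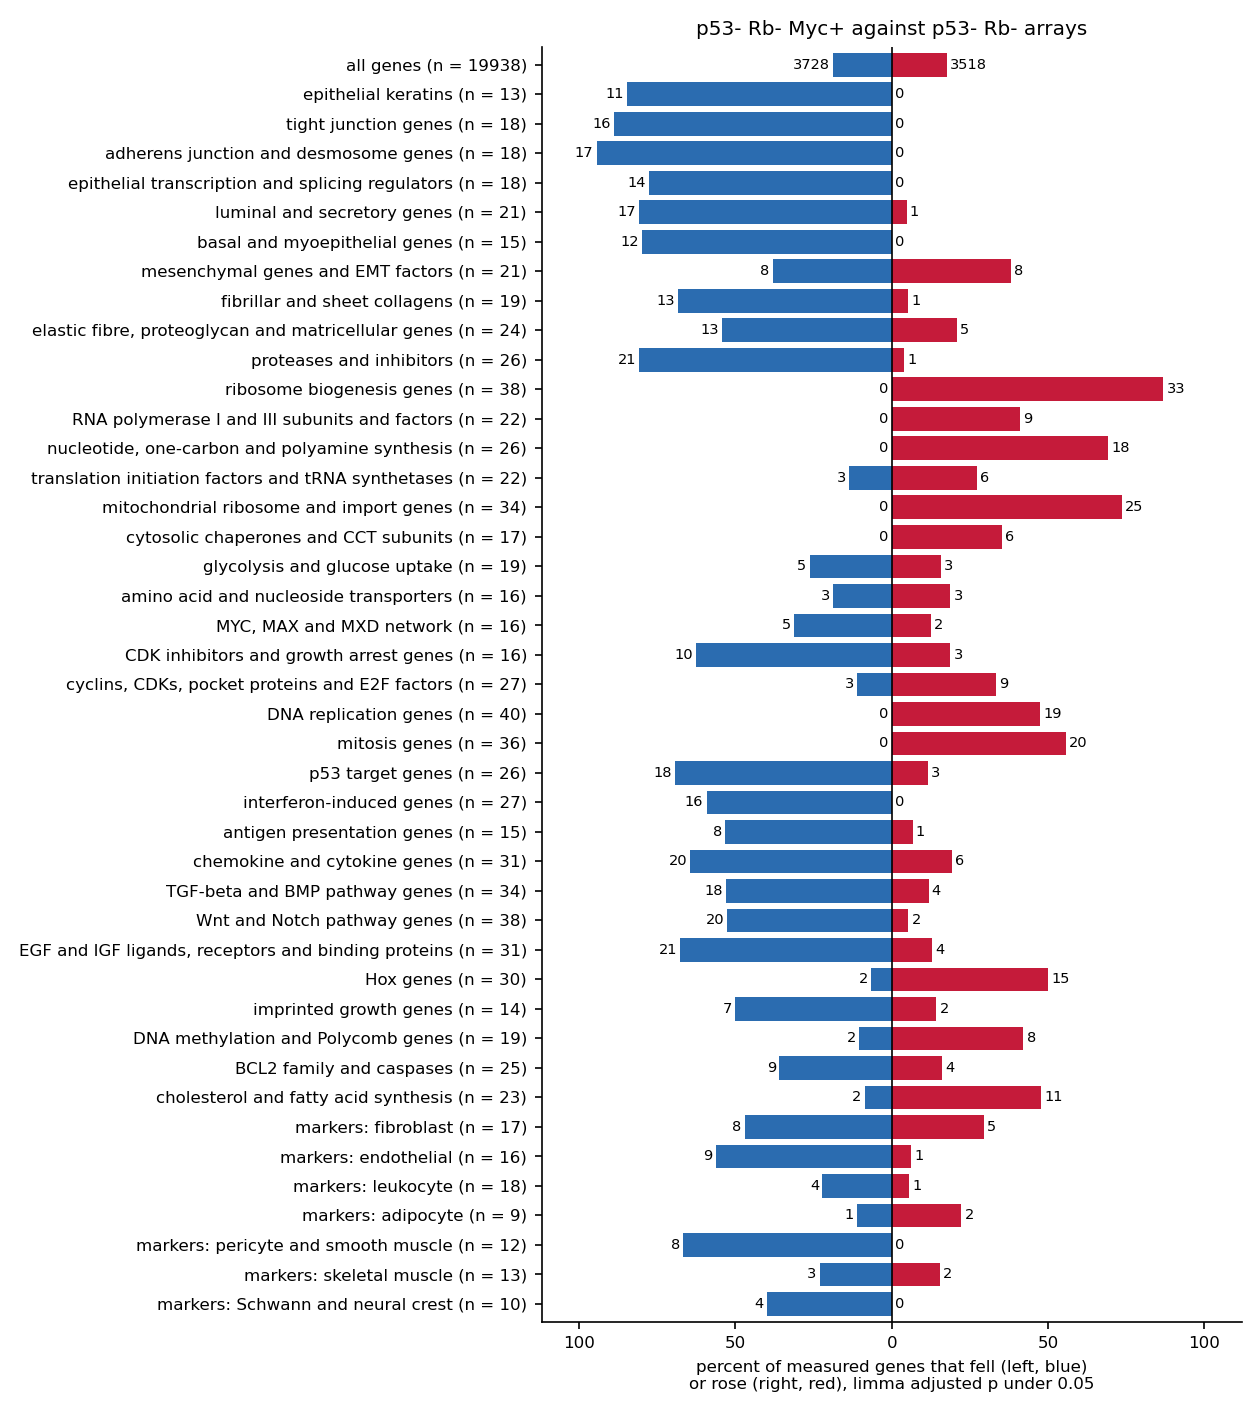
Share of the measured members of each gene list that rose (right, red) or fell (left, blue) in the Myc+ arrays against the control arrays, in percent, with the counts printed beside the bars and all 19938 genes in the top row. Junction, keratin and epithelial regulator lists held falls and no rises, and ribosome, nucleotide, mitochondrial, replication and mitosis lists held rises and no falls.

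Epithelial transcripts fell furthest. Of the 42 gene lists, the keratins had the lowest median. Among keratins, the filament proteins of epithelial cells, 11 of 13 genes fell and none rose, with a median of -5.16, against 18.7% of all genes falling and a median of 0.12. Krt18, a keratin of luminal cells, read 4238, 4358 and 4492 on the control arrays and 21.98, 22.9 and 26.7 on the Myc+ arrays. The groups lay far apart, and the difference was -6.78 ± 0.17 (SE, adjusted p = 5.59e-18), 110.0-fold. Krt5, a keratin of basal cells, read 2268, 2271 and 1874 and then 5.44, 12.2 and 12.1, and fell by 6.38 ± 0.18 (adjusted p = 1.99e-17). Keratins of both lineages fell: Krt7 (-6.20) and Krt8 (-5.73) are luminal, and Krt14 (-5.85) and Krt17 (-6.23) basal. Krt19 was the exception in size. It read 1315, 1306 and 1124 on the control arrays and 486, 465 and 517 on the Myc+ arrays, so it fell by 1.32 ± 0.15 (adjusted p = 2.01e-07) and kept a clear signal. Krt15 (-0.01) and Krt23 (0.20) did not pass, and both were low or close to it in either group.

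Tight junction genes seal neighbouring epithelial cells, and 16 of 18 fell with a median of -2.73. Cldn4, a claudin of the seal itself, read 1645, 1481 and 1513 on the control arrays and 6.68, 9.11 and 6.26 on the Myc+ arrays, and fell by 6.06 ± 0.17 (adjusted p = 1.99e-17). Cldn7 (-5.61), Cldn3 (-5.72), Cldn1 (-4.99) and the tricellular junction receptor Lsr (-3.64) fell with it. Tjp1, the scaffold ZO-1 that also serves junctions outside epithelia, did not pass: its arrays read 438, 500.3 and 327 and 485, 524 and 393, which overlap (0.15 ± 0.18, adjusted p = 0.542). Cldn8 (-0.08) did not pass either.

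Adherens junction and desmosome genes fell in 17 of 18 cases, with a median of -3.33. Epcam, an epithelial adhesion molecule, read 1799, 1877 and 1371 on the control arrays and 14.01, 8.88 and 11.8 on the Myc+ arrays (-5.94 ± 0.17, adjusted p = 1.99e-17). Cdh1, which encodes E-cadherin, read 1712, 1712 and 1528 and then 13.8, 16.8 and 15.1 (-5.74 ± 0.16, adjusted p = 1.99e-17). All 6 Myc+ values of these 2 genes were low, and no array of either group came near the other. Desmoplakin (Dsp, -4.20), which ties keratin to desmosomes, plakophilin 1 (Pkp1, -4.23) and the desmosomal protein Perp (-4.53) also fell, and Evpl (-0.05) was the 1 member that did not pass.

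**Figure D2:**
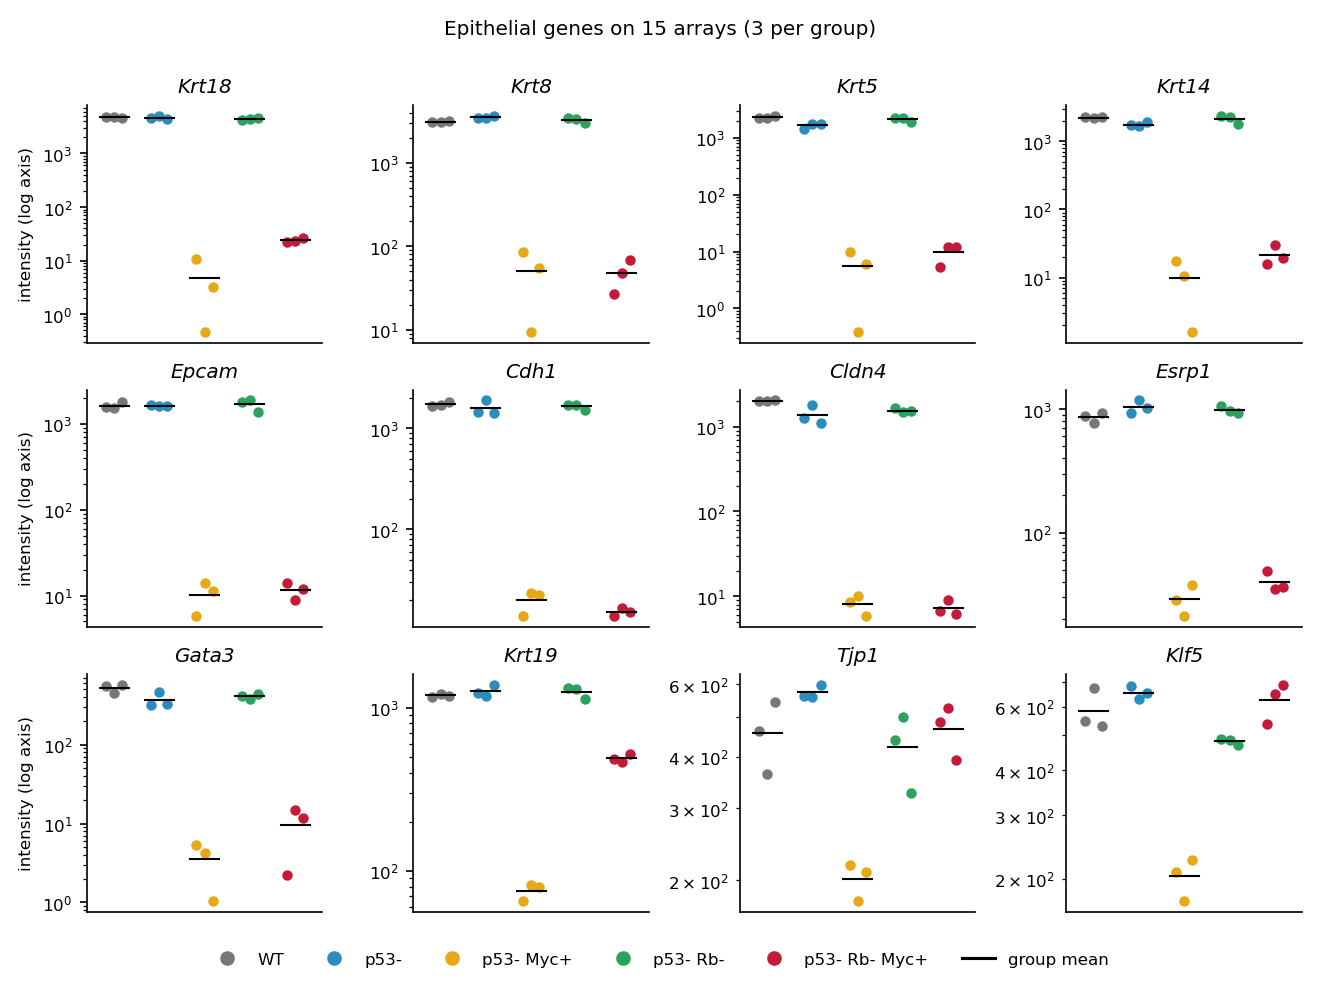
Intensity (log axis, arbitrary linear units of the deposited values) of 12 epithelial genes on each of the 15 arrays, 1 point per array, coloured by group, with a short line at each group mean. In 9 panels the WT, p53- and p53- Rb- arrays sit at the top and the p53- Myc+ and p53- Rb- Myc+ arrays at the bottom, while in the last 3 (Krt19, Tjp1, Klf5) the p53- Rb- Myc+ arrays lie above the p53- Myc+ arrays.

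The regulators of this programme fell too, in 14 of 18 genes. Esrp1, which directs epithelial splicing, read 1048, 967 and 932 on the control arrays and 49.01, 34.98 and 36.4 on the Myc+ arrays (-4.16 ± 0.17, adjusted p = 7.59e-15). The luminal factor Gata3 fell by 4.10 ± 0.20 (adjusted p = 1.08e-13), and Tfap2c (-2.97), Tfap2a (-3.62) and Grhl2 (-3.04), which hold epithelial identity, fell as well. The 4 members that did not pass were Klf5 (0.36 ± 0.16, adjusted p = 0.0778), which read 488, 484 and 469 and then 538, 651 and 689 and passed as a rise with the arrays centred, Pgr (0.38), Foxa1 (-0.14) and Esr1 (0.11).

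Luminal and secretory genes fell in 17 of 21 cases and basal and myoepithelial genes in 12 of 15. Csn3, which encodes the milk protein kappa-casein, read 2665, 2411 and 3739 on the control arrays and 16.7, 29.5 and 21.8 on the Myc+ arrays (-6.24 ± 0.19, adjusted p = 4.29e-17). The secreted protease-inhibitor-like protein Wfdc2 fell by 6.50 ± 0.19 (adjusted p = 2.17e-17), its relative Wfdc18 by 6.36 ± 0.29 (adjusted p = 4.15e-14) and the chaperone clusterin (Clu) by 6.55 ± 0.18 (adjusted p = 1.84e-17). The membrane serine protease St14 (-5.25) and its inhibitors Spint2 (-5.72) and Spint1 (-4.23) fell together. The mucin Muc4 was the 1 luminal gene that rose (0.77 ± 0.19, adjusted p = 0.00253), and 2 without Myc+ replicate 2 rose. On the basal side, Sfn (-5.30), the laminin chain Lamb3 (-5.06) and integrin Itgb4 (-4.42), which anchor cells to the basement membrane, fell. The contractile gene Cnn1 read 829, 724 and 938 and then 13.8, 11.1 and 6.73, and fell by 5.00 ± 0.21 (adjusted p = 1.11e-14), while Acta2, smooth muscle actin, fell by 0.71 ± 0.18 (adjusted p = 0.00337) from 3001 ± 569 to 1807 ± 121.

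The E-box CAGGTG is known as the letters that the EMT repressors of the ZEB and SNAI families bind in promoters such as that of Cdh1. It was searched in RefSeq promoters (build GRCm38.p6, 250 bases before to 50 after a gene's start, as CAGGTG on either strand), which 15614 of the 19938 genes had. A promoter with CAGGTG was found for 22.2% of these genes, 17.5% of those that rose, 26.4% of those that fell and 41.6% (72 of 173) of those that fell at least 8-fold. Among lists that fell it was found for 5 of 6 keratin genes, 12 of 15 tight junction genes and 2 of 15 collagen genes. Of lists with rises and no falls it was found for 1 of 33 ribosome biogenesis genes and 6 of 18 RNA polymerase I and III genes, and of transporter genes it was found for 5 of 12, so the share did not follow the direction of the list throughout. A gene with several promoters in the table had more letters searched. Over genes with a single promoter the shares were 19.2% of all, 14.4% of those that rose and 36.8% of those that fell at least 8-fold. These are counts of letters with no test, and binding was not measured. The following stretches upstream of 5 of the genes that fell show the motif in capitals, CAGGTG or its reverse complement CACCTG, read 5′ to 3′ along the gene's strand.
Epcam (chr17:87635747-87635842, plus strand): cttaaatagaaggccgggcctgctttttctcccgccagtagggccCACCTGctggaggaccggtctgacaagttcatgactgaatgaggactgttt
Cldn4 (chr5:134946935-134946993, minus strand): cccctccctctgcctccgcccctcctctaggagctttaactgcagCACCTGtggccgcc
Cldn7 (chr11:69965279-69965414, plus strand): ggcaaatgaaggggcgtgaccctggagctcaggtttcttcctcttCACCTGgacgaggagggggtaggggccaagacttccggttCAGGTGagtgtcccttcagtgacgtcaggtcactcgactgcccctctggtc
Krt18 (chr15:102027966-102028052, plus strand): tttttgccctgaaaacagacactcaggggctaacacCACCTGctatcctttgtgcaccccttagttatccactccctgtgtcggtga
Krt5 (chr15:101712983-101713078, minus strand): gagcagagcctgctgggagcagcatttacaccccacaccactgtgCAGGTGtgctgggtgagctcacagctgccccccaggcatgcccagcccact

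Mesenchymal genes split. Of 21 mesenchymal genes and EMT factors, 8 rose and 8 fell, with a median of 0.04, below that of all genes. The transcription factors known to repress epithelial genes were mostly among the risers. Zeb2 read 109, 134 and 135 on the control arrays and 318, 374 and 250.3 on the Myc+ arrays, a rise of 1.20 ± 0.18 (adjusted p = 9.96e-06) with no overlap. Twist2 read 300.1, 332 and 637 and then 914, 1055 and 1124 (1.33 ± 0.21, adjusted p = 2.32e-05). Twist1 (0.93), Prrx1 (1.02) and Snai2 (0.62) rose as well, and Zeb1 rose by 0.50 ± 0.19 with arrays that overlap (129, 127 and 158 against 233, 227 and 151, adjusted p = 0.0406), a call lost with 1 added in place of 16 (adjusted p = 0.076) and on leaving out 1 array (adjusted p 0.117 to 0.166 without control replicate 1 or 2 or Myc+ replicate 1 or 2). Snai1 did not pass (-0.10 ± 0.21, adjusted p = 0.726). S100a4, a calcium-binding protein of motile cells, rose by 1.62 ± 0.17 (adjusted p = 1.1e-07). Vim, the mesenchymal filament gene vimentin, was already high: it read 2281, 2329 and 2898 on the control arrays and 2880.2, 3093 and 3275 on the Myc+ arrays (0.31 ± 0.15, adjusted p = 0.121), and Cdh2, N-cadherin, fell by 0.71 ± 0.18 (adjusted p = 0.00266).

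The secreted mesenchymal proteins went the other way. Tnc, the matrix glycoprotein tenascin C, read 2245, 2180.5 and 2711 on the control arrays and 33.9, 40.7 and 43.99 on the Myc+ arrays, and fell by 5.43 ± 0.16 (adjusted p = 2.39e-17). Fibronectin (Fn1) fell by 2.94 ± 0.14 (adjusted p = 1.87e-13) and periostin (Postn) by 2.34 ± 0.19 (adjusted p = 7.76e-10). Of 19 collagen genes, 13 fell and 1 rose, with a median of -1.25. The basement membrane collagens Col4a1 (-2.63), Col4a2 (-2.24) and Col18a1 (-3.73) fell, and the fibrillar chains Col11a1 (-3.05), Col1a2 (-1.06) and Col1a1 (-0.88) fell too. Col3a1 rose (0.42 ± 0.16, adjusted p = 0.0394), a call lost over the compared arrays only (adjusted p = 0.0521) and on leaving out 1 array (adjusted p 0.119 to 0.156 without control replicate 1 or 2 or Myc+ replicate 1 or 2), which leaves no collagen that rose. Among proteases and their inhibitors, which cut the matrix or protect it, 21 of 26 fell and 1, Mmp19, rose (0.70), also a call that 1 array decides (adjusted p 0.05 to 0.06 without control replicate 1 or Myc+ replicate 3). Mmp9, a gelatinase, read 972, 976 and 935 and then 5.13, 6.75 and 7.57 (-5.44 ± 0.16, adjusted p = 5.77e-17), and the metalloproteinase inhibitor Timp3 read 1961, 1877 and 1911 and then 13.8, 14.8 and 13.2 (-6.01 ± 0.19, adjusted p = 1.81e-16). Mmp3 (-4.33), Mmp14 (-2.81) and cathepsin K (Ctsk, -3.36) followed.

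A small set of matrix and mesenchymal genes rose strongly against this. Of 24 elastic fibre, proteoglycan and matricellular genes, 5 rose and 13 fell, against 17.6% and 18.7% of all genes. Prg4, which encodes the joint and tendon lubricant lubricin, read 32.1, 35.2 and 25.6 on the control arrays and 853, 895 and 1031 on the Myc+ arrays, a rise of 4.33 ± 0.19 (adjusted p = 2.31e-14) or 20.1-fold. The proteoglycan Ogn read 8.08, 17.95 and 15.6 and then 351, 377 and 224 (3.46 ± 0.21, adjusted p = 9.71e-12), and Efemp1, fibulin 3, read 125, 149 and 149 and then 1147, 1021 and 879 (2.71 ± 0.20, adjusted p = 2.95e-10). All 9 Myc+ values of these 3 genes were above all their control values. On the other side, the microfibril genes Mfap5 (-4.19) and Mfap4 (-3.83), the thrombospondins Thbs2 (-3.09) and Thbs1 (-2.97) and Ccn2 (-2.96), a secreted growth regulator, fell.

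The 12 highest rises among genes at or above the median level were led by Ifitm1, an interferon-inducible membrane protein. It read 23.7, 25.2 and 25.04 on the control arrays and 779, 937 and 810.0 on the Myc+ arrays (4.39 ± 0.19, adjusted p = 2.55e-14). Aldh1a1, which makes retinoic acid, read 18.97, 16.7 and 26.01 and then 409, 468 and 418 (3.62 ± 0.17, adjusted p = 6.8e-14). The homeobox gene Meox2 rose by 3.37 ± 0.21 (adjusted p = 9.29e-12) and the factor Ebf3 by 3.24 ± 0.14 (adjusted p = 3.37e-14). Wt1, a zinc finger factor of kidney and mesothelium, read 41.9, 53.01 and 89.5 on the control arrays and 516, 509 and 445 on the Myc+ arrays (2.75 ± 0.20, adjusted p = 2.27e-10). The imprinted gene Peg10 (2.79), the secreted Wnt modulator Sfrp2 (2.30), the adhesion molecule Vcam1 (2.27), the small nucleolar RNA gene Snord47 (2.30) and the gasdermin Gsdme (2.25) completed the 12 with Prg4 and Efemp1. In each of them the 3 Myc+ arrays lay above the 3 control arrays, which the rule that named them required.

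**Figure D3:**
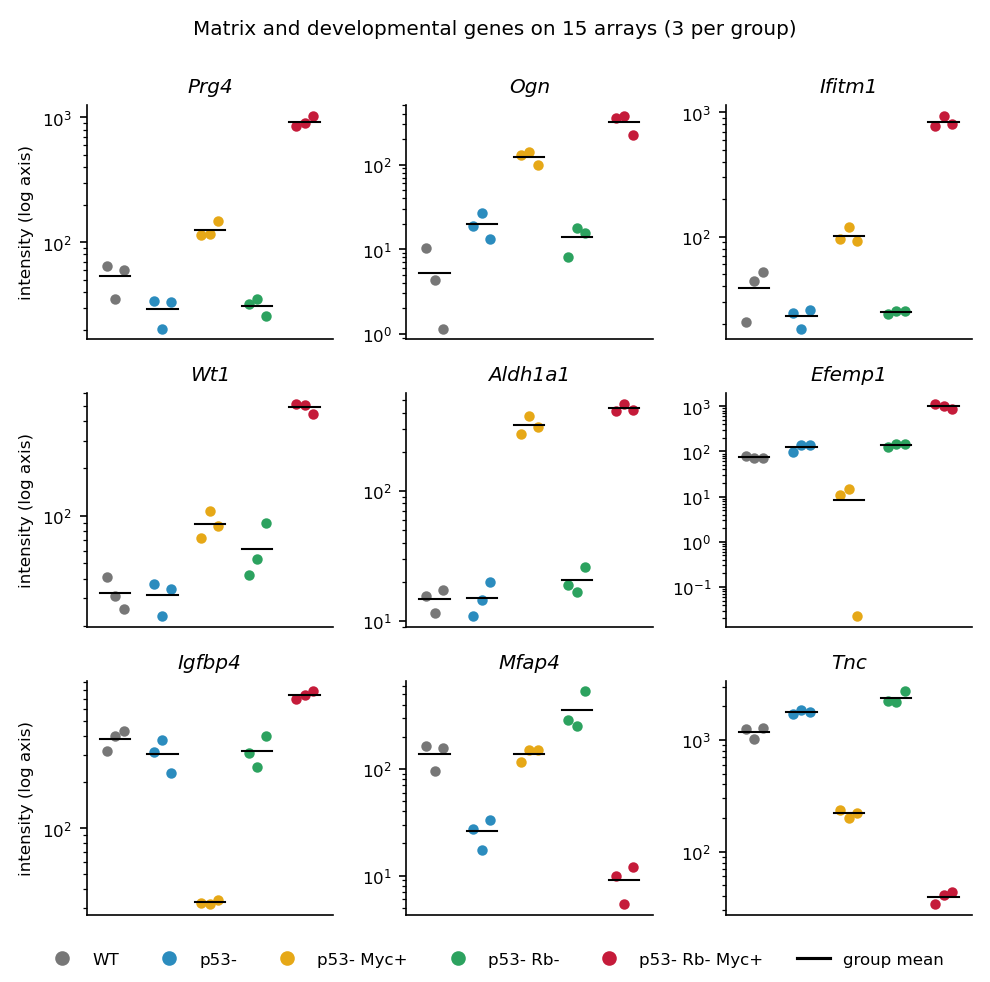
Intensity (log axis) of 9 genes on each of the 15 arrays, 1 point per array, coloured by group, with a short line at each group mean. Prg4, Ogn, Ifitm1, Wt1 and Aldh1a1 are highest in the p53- Rb- Myc+ arrays and next in the p53- Myc+ arrays, Efemp1 and Igfbp4 are high in p53- Rb- Myc+ and low in p53- Myc+ arrays, and Mfap4 and Tnc are lowest in p53- Rb- Myc+ arrays.

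Most genes that build ribosomes rose. Of 38 nucleolar genes of ribosome biogenesis, 33 rose and none fell, all 38 had values above 0 and the median was 0.90, against 17.6% of all genes rising. Npm1, which encodes nucleophosmin, read 735, 801 and 753 on the control arrays and 1777, 2039.9 and 1966 on the Myc+ arrays, a rise of 1.32 ± 0.16 (adjusted p = 8.57e-07). Nat10, which acetylates ribosomal RNA, read 150.5, 166 and 159 and then 386, 424 and 422 (1.29 ± 0.15, adjusted p = 5.15e-07). Heatr1 (1.20), Ddx18 (1.18) and Wdr43 (1.35), which process pre-ribosomal RNA, rose by similar amounts, and the rises in the list reached 1.35 at most, well under the size of the keratin falls. Bysl (0.42), Nop56 (0.30), Pes1 (0.36), Pno1 (0.43) and Tsr1 (0.27) did not pass as deposited, and all but Tsr1 passed as rises with the arrays centred. RNA polymerases I and III, which transcribe ribosomal and transfer RNA, had 9 risers and no faller among 22 genes, led by the polymerase I subunit Polr1b (1.09 ± 0.15, adjusted p = 3.88e-06) and the polymerase III factor Bdp1 (1.43 ± 0.20, adjusted p = 5.06e-06).

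Nucleotide, one-carbon and polyamine synthesis followed the same course, with 18 of 26 genes rising, none falling and a median of 0.66. Srm, spermidine synthase, read 619.6, 646 and 980.0 on the control arrays and 1949, 2042 and 2112 on the Myc+ arrays (1.45 ± 0.18, adjusted p = 6.19e-07). Cad, which starts pyrimidine synthesis, read 233, 238 and 277 and then 661, 657 and 527 (1.25 ± 0.17, adjusted p = 4.61e-06). Prps1 (1.28) and Ppat (1.07) open purine synthesis, Mthfd1l (1.17) supplies one-carbon units in mitochondria, and all 3 rose. Odc1, ornithine decarboxylase, often used as a reporter of MYC activity, did not pass (0.05 ± 0.15, adjusted p = 0.822), and its arrays overlapped at 1507, 1532 and 1236 and 1548, 1449 and 1419.

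Mitochondrial ribosome and import genes rose in 25 of 34 cases and fell in none, with a median of 0.61. Timm9, a chaperone of the inner membrane import path, read 173, 170.4 and 269.9 on the control arrays and 584, 645 and 777 on the Myc+ arrays (1.65 ± 0.19, adjusted p = 3.03e-07). Timm8a1 (1.45), C1qbp (1.08), Mrps30 (1.03) and Tomm70a (0.99) rose too. Chaperones of the cytosol (6 of 17 rose, 10 with centred arrays and 13 with quantile normalization, and 0 fell) and translation factors with tRNA synthetases (6 of 22 rose, 3 fell) had fewer calls. The cap-binding protein gene Eif4e rose by 0.88 ± 0.15 (adjusted p = 7.53e-05), and Cct3 by 0.80 ± 0.16 (adjusted p = 0.000277).

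Calls among transporters were about as frequent as among all genes, of which 17.6% rose and 18.7% fell. Among 16 amino acid, nucleoside and folate transporters, 3 rose (6 with quantile normalization and 8 with array weights) and 3 fell. The folate carrier Slc19a1 read 108, 137 and 163 on the control arrays and 509.5, 501 and 563 on the Myc+ arrays (1.84 ± 0.19, adjusted p = 6.4e-08), and the glutamine transporter Slc1a5 rose by 1.29 ± 0.18 (adjusted p = 4.71e-06). Slc38a1, another glutamine transporter, fell by 2.51 ± 0.19 (adjusted p = 3.34e-10). In glycolysis and glucose uptake, 3 of 19 genes rose (5 with quantile normalization and 6 with array weights) and 5 fell (8 with array weights), also not far from the shares over all genes. The lactate transporters parted: Slc16a3 (MCT4) read 916, 797 and 1138 and then 29, 50.99 and 66.4 (-3.93 ± 0.20, adjusted p = 5.12e-13), while Slc16a1 (MCT1) read 197, 192 and 183 and then 461, 473 and 400.3 (1.15 ± 0.18, adjusted p = 2.17e-05). Aldoc (-2.54) and Ldhb (-1.83) fell and Pdk1 (1.01), a kinase that inhibits pyruvate dehydrogenase, rose. In sterol and fatty acid synthesis, 11 of 23 rose and 2 fell, led by the elongase Elovl6 (2.21 ± 0.21, adjusted p = 1.56e-08) and the isomerase Idi1 (1.65 ± 0.20, adjusted p = 4.15e-07).

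The MYC E-box CACGTG reads the same on both strands and cannot share a site with CAGGTG. It was present in a promoter of 9.5% of all genes with one, 12.2% of those that rose and 10.3% of those that fell. Over genes with a single promoter it was present in 8.27% of all, 10.9% of those that rose and 8.5% of those that fell. By list it was present for 8 of 33 ribosome biogenesis genes (24.2%), 6 of 30 mitochondrial genes (20%) and 3 of 23 nucleotide genes (13%). Some lists with mostly falls held it as often: 4 of 15 tight junction genes (26.7%), 4 of 13 CDK inhibitor and arrest genes (30.8%), 3 of 11 antigen presentation genes (27.3%) and 6 of 25 EGF and IGF genes (24%). Others held none of it, 0 of 15 collagens and 0 of 18 interferon-induced genes, and the highest share was 6 of 12 translation genes, a list in which 6 of 22 rose. These too are counts with no test. Stretches upstream of Timm9 and of Nop2, a ribosomal RNA methyltransferase gene that rose by 0.57 ± 0.16 (adjusted p = 0.00702), show it in capitals, 5′ to 3′ along the gene's strand.
Timm9 (chr12:71136683-71136778, minus strand): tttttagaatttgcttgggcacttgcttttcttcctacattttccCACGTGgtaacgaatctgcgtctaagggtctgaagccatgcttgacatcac
Nop2 (chr6:125131778-125131873, plus strand): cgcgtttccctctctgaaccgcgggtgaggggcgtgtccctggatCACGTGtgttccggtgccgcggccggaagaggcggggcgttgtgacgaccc

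**Figure D4:**
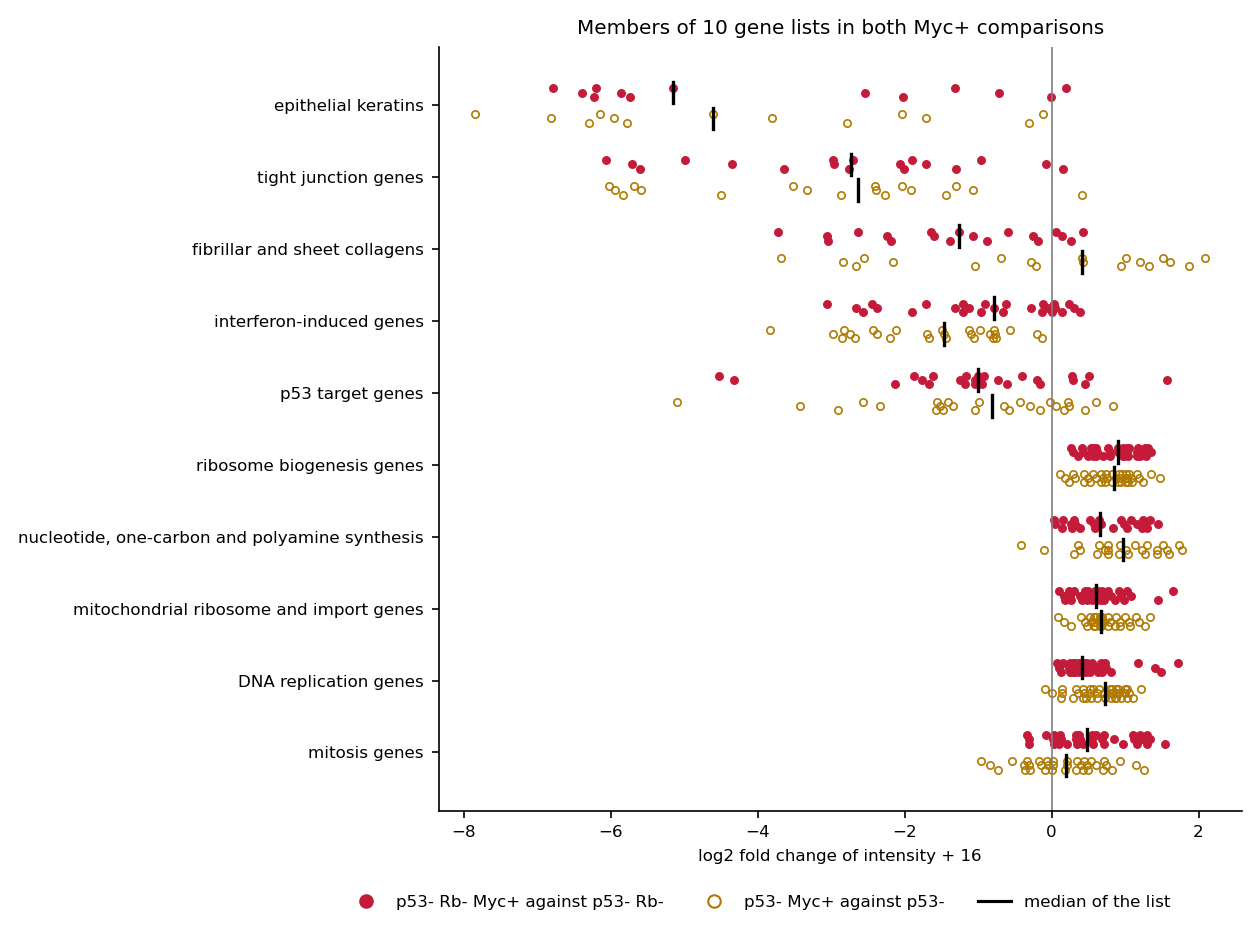
Log2 fold change of every measured member of 10 gene lists, 1 point per gene, in p53- Rb- Myc+ against p53- Rb- arrays (filled) and in p53- Myc+ against p53- arrays (open), with a short line at each median. The medians of ribosome, nucleotide and mitochondrial genes lie above 0 in both, the median of mitosis genes is higher among the filled points, and that of collagens is lower among them.

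The primary transcript of the miR-17-92 cluster, whose microRNAs are known MYC targets that restrain arrest and death genes, was measured by several probe sets, which were looked up after the values were seen. The Mir17 probe set read 21.9, 14.03 and 31.1 on the control arrays and 128, 163 and 136 on the Myc+ arrays (2.07 ± 0.23, adjusted p = 1.23e-07). The Mir18 probe set read 9.17, 7.80 and 8.76 and then 48.9, 63.4 and 67.7 (1.62 ± 0.18, adjusted p = 1.94e-07), and the host gene Mir17hg rose by 1.21 ± 0.22 (adjusted p = 0.000121). In these 3 the groups did not overlap. Mir19a rose by 0.61 ± 0.24 (adjusted p = 0.0487), a call that rests on single arrays and low values (8.95, 1.20 and 4.45 on the control arrays and 8.79, 36.7 and 8.06 on the Myc+ arrays, adjusted p 0.104 to 0.416 without control replicate 2 or 3 or Myc+ replicate 2, and adjusted p 0.0666 to 0.118 with 1 or 64 added in place of 16, array weights or the compared arrays only), and Mir20a (0.44 ± 0.21, adjusted p = 0.1) and Mir19b-1 (0.46 ± 0.20, adjusted p = 0.0719) did not pass. The array reads long RNA from these loci and not the mature microRNAs. Most of these intensities were low. By mean level, the median difference over genes was 0.14 up to 23.9, 0.20 from there to 45.4, 0.14 to 91.2, 0.02 to 220.8 and 0.03 above that, so it was higher in the 3 lower classes of level than in the upper 2. Of 1027 olfactory receptor genes, which mammary cells are not known to use, 106 rose and 8 fell. Over all genes, 17.6% rose and 18.7% fell, so both calls were rarer among these receptors. Their median difference was 0.20, at a median intensity of 13.7 on control and 18.2 on Myc+ arrays. The part of that shift in the rises of low genes was not tested. The mature sequences (RefSeq, GRCm38.p6, chromosome 14, plus strand), with the seed, bases 2 to 8, in capitals, fall into 3 seed groups. miR-17-5p and miR-20a-5p share AAAGUGC, miR-19a-3p and miR-19b-3p share GUGCAAA, and miR-18a-5p has AAGGUGC.
miR-17-5p (chr14:115043684-115043706): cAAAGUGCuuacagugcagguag
miR-20a-5p (chr14:115044183-115044205): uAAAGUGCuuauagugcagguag
miR-18a-5p (chr14:115043867-115043889): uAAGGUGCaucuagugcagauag
miR-19a-3p (chr14:115044048-115044070): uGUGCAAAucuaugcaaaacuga
miR-19b-3p (chr14:115044358-115044380): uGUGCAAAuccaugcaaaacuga

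Small nucleolar RNA genes, which guide the modification of ribosomal RNA and sit in introns of host genes, rose in 32 of 51 cases and fell in 2, with a median of 0.69. Snord47, at 45.8 ± 7.88 on control and 292 ± 67.8 on Myc+ arrays, is one of the 12 highest rises. This family and the next 3 were counted after the values were seen. Over all genes, 17.6% rose and 18.7% fell. Of 20 nucleoporins, which form the nuclear pore, 13 rose and 2 fell. Of 17 hnRNP genes, whose proteins package pre-mRNA, 10 rose and none fell. Of 12 annexins, which bind membranes, none rose and 9 fell, with a median of -1.04.

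Genes of DNA replication rose in 19 of 40 cases and fell in none, and all 40 had values above 0. The helicase-like gene Hells read 96.2, 127 and 59.8 on the control arrays and 375, 338 and 299 on the Myc+ arrays (1.72 ± 0.21, adjusted p = 6e-07). The origin kinase Cdc7 (1.49), the origin protein Orc2 (1.17) and the primase-associated polymerase Pola1 (1.41) rose as well. The median of the list was 0.41. Among mitosis genes, 20 of 36 rose, none fell (2 without control replicate 3) and the median was 0.49. The condensin gene Smc4 read 265, 324 and 191 and then 658, 802 and 562 (1.34 ± 0.19, adjusted p = 5.43e-06), and Smc2 (1.55), the checkpoint kinase Bub1 (1.1) and the spindle motors Kif11 (1.17) and Kif20b (1.23) rose. Plk1, Aurka and Tpx2, core mitotic genes named after their values were seen, had values of 0.05, 0.03 and 0.11 and did not pass.

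The cyclin and E2F list held 9 risers and 3 fallers among 27 genes, against 17.6% and 18.7% of all genes. The fallers were Rb1 itself, Ccnd2 (-0.48, with adjusted p 0.0512 with quantile normalization and adjusted p 0.0574 to 0.0818 without control replicate 2 or 3 or Myc+ replicate 2 or 3) and Ccnd1, the D cyclin that answers growth factors, which read 2265, 2035 and 2729.8 on the control arrays and 715, 794 and 725 on the Myc+ arrays (-1.62 ± 0.18, adjusted p = 1.25e-07). Ccne2, an E cyclin that acts after Rb, read 43.5, 61.3 and 33.4 and then 217, 199 and 159 (1.76 ± 0.20, adjusted p = 2.18e-07). Cdk6 (1.16) and Ccna2 (0.94) rose. Of the E2F factors, E2f3 (0.52, with adjusted p 0.053 to 0.13 without control replicate 1 or 2 or Myc+ replicate 1 or 3), E2f4 (0.65, with adjusted p 0.0548 to 0.055 without control replicate 1 or 2) and E2f5 (0.78) rose, and E2f1 (-0.40 ± 0.19, adjusted p = 0.106), E2f2 (0.00), E2f6 (0.26), E2f7 (0.18) and E2f8 (0.33) did not pass. The other pocket proteins, Rbl1 (0.03) and Rbl2 (0.18), which can stand in for Rb, did not pass either.

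Growth arrest genes went mostly down: 10 of 16 fell and 3 rose. Of all genes, 18.7% fell and 17.6% rose, so the rises were about as frequent as elsewhere. Cdkn2a, which encodes the inhibitors p16 and p19ARF, was one of the risers and read 165, 153 and 189 on the control arrays and 541, 627 and 428 on the Myc+ arrays (1.55 ± 0.19, adjusted p = 5.48e-07). Its neighbour Cdkn2b, p15, read 290.0, 288 and 422 and then 127, 158 and 129 (-1.16 ± 0.22, adjusted p = 0.000159), the opposite direction. Cdkn2c (p18) rose by 1.18 ± 0.16 (adjusted p = 4.72e-06), Cdkn1b (p27) fell by 0.65 ± 0.20 (adjusted p = 0.0134, and adjusted p 0.0551 to 0.0735 without control replicate 3 or Myc+ replicate 3), Cdkn1c (p57) fell by 0.78 ± 0.17 (adjusted p = 0.000734) and Cdkn2d did not pass (-0.10). The arrest genes Btg2 (-1.67), Gadd45a (-1.57) and Ndrg1 (-1.18) fell, and Gas1 (1.63), the third riser, went against them.

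In the MYC network, 2 of 16 genes rose and 5 fell, Myc included. That is 43.8% passing, not far from the 36.3% of all genes (17.6% rose and 18.7% fell). The MXD proteins compete with MYC for MAX. Mxd4 read 207, 166 and 220.4 on the control arrays and 91.9, 69.1 and 99.2 on the Myc+ arrays (-1.06 ± 0.16, adjusted p = 1.37e-05), and Mxd1 fell by 0.47 ± 0.18 (adjusted p = 0.0455), a call lost with 64 added, centred arrays or a trended robust prior (adjusted p 0.0619 to 0.0845) and on leaving out 1 array (adjusted p 0.0977 to 0.206 without control replicate 1 or 2 or Myc+ replicate 2 or 3). The partner Max (0.41 ± 0.17, adjusted p = 0.0705), the repressors Mnt (-0.40), Mxi1 (0.33) and Mxd3 (0.30) and the paralogue Mycn (-0.25) did not pass. Mycl fell by 0.82 ± 0.17 (adjusted p = 0.000601), and Mga (0.79), a large MAX partner, and Fbxw7 (0.52), which marks MYC for destruction, rose. Neither call held throughout: Mga had adjusted p 0.0854 to 0.0909 without control replicate 3 or Myc+ replicate 2 and Fbxw7 had adjusted p 0.0544 to 0.0604 without control replicate 1 or 3 or Myc+ replicate 3. With the mean of all its probe sets, Fbxw7 came to 0.12 (adjusted p = 0.596).

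Both groups lack p53 by label, yet genes known as p53 targets fell in 18 of 26 cases and rose in 3, with a median of -1.0. The largest fall in the list was that of Perp, from 644 ± 35.2 to 12.6 ± 1.66 (-4.53 ± 0.15, adjusted p = 1.81e-16), a gene that the desmosome list also holds. Ak1 (-4.32), Ephx1 (-2.13), Plk2 (-1.76) and Btg2 fell too, and Mdm2, the ubiquitin ligase of p53, fell by 0.73 ± 0.19 (adjusted p = 0.00352). Sesn1 rose from 65.4 ± 12.8 to 227 ± 36.5 (1.58 ± 0.17, adjusted p = 7.68e-08). Among BCL2 family and caspase genes, 9 of 25 fell and 4 rose (1 to 2 without control replicate 1 or 2 or Myc+ replicate 1 or 2). Of all genes, 18.7% fell and 17.6% rose, so the rises were about as frequent as elsewhere. Casp1, the inflammatory caspase, read 131, 161 and 122 on the control arrays and 4.23, 15.03 and 8.24 on the Myc+ arrays (-2.63 ± 0.22, adjusted p = 1.47e-09), and Casp8 (-1.62), the BH3-only genes Pmaip1 (-1.87) and Bik (-1.39) and the survival gene Bcl2l1 (-1.22) fell.

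Interferon-induced genes, a list without Ifitm1, fell in 16 of 27 cases and rose in none (1 without control replicate 2), with a median of -0.78. Of the 27, 5 lay at or above the median level of all genes, and all 5 fell. Zbp1, a nucleic acid sensor, read 166, 168 and 136 on the control arrays and 0.175, 5.45 and 9.26 on the Myc+ arrays (-3.06 ± 0.22, adjusted p = 1.33e-10). The RNA sensor gene Ddx58 (-2.57), Xaf1 (-2.45), Rtp4 (-2.65) and Oasl2 (-2.37) fell with it, and Ifit1 (-0.12) and Rsad2 (0.03), named after their values were seen, did not pass. Control replicate 3 was lowest of its group in Rtp4, at 146, 183 and 57.6 over replicates 1 to 3. Antigen presentation genes fell in 8 of 15 cases, the immunoproteasome subunit Psmb8 by 3.48 ± 0.25 (adjusted p = 1.55e-10) and the peptide loader Tapbp by 2.02 ± 0.17 (adjusted p = 2.95e-09).

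Chemokine and cytokine genes fell in 20 of 31 cases and rose in 6. Of all genes, 18.7% fell and 17.6% rose, so rises were about as frequent in this list as elsewhere. Lif, a cytokine of the IL-6 family, read 584, 489 and 659.7 on the control arrays and 23.8, 22.03 and 16.99 on the Myc+ arrays (-4.00 ± 0.18, adjusted p = 3.3e-14), and Cxcl14 read 446, 455 and 679 and then 9.79, 8.46 and 14.2 (-4.32 ± 0.18, adjusted p = 9.77e-15). Cxcl16 (-3.40), Il1a (-3.37) and Il11 (-3.52) fell too. The 6 risers, of which none is among the 5 smallest p-values, were Il33 (1.91), Saa3 (1.63), Ccl7 (1.38), Ccl2 (0.98), Cxcl1 (0.78) and Cxcl5 (0.76), most of them chemokines for monocytes or neutrophils.

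Signals between cells fell in the same way. In the TGF-beta and BMP pathway, 18 of 34 genes fell and 4 rose, against 18.7% and 17.6% of all genes. Among ligands, Inhba, the activin subunit, read 958, 1163 and 689.7 on the control arrays and 39.3, 53.3 and 53.8 on the Myc+ arrays (-3.86 ± 0.21, adjusted p = 1.23e-12), and Tgfb1 fell by 2.84 ± 0.16 (adjusted p = 3.05e-12). Follistatin (Fst), which traps activin, fell by 4.03 ± 0.17 (adjusted p = 1.26e-14), and Ltbp2 (-3.41) and Inhbb (-2.98) fell. In the Wnt and Notch pathways, 20 of 38 fell and 2 rose (4 with centred arrays and 5 with quantile normalization, and 4 without Myc+ replicate 3). The ligand Wnt7b read 535, 468 and 562 and then 8.64, 10.9 and 7.57 (-4.42 ± 0.16, adjusted p = 1.53e-15), Wnt5b (-3.24) and Wnt5a (-3.15) fell, and so did the Notch ligand Jag1 (-3.30) and the Notch target Nrarp (-2.67). The risers were Sfrp2 and Jag2 (0.58).

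Of 31 EGF and IGF pathway genes, 21 fell and 4 rose, in cells grown with EGF and insulin. Over all genes, 18.7% fell and 17.6% rose. The ligand Hbegf (-2.59) and the receptor Erbb3 (-2.82) fell. The IGF-binding proteins, which hold IGF away from its receptor or carry it, went both ways. Igfbp5 fell by 4.03 ± 0.20 (adjusted p = 2.26e-13), Igfbp2 (-2.56) and Igfbp3 (-2.69) fell, and Igfbp4 read 311, 252 and 401 on the control arrays and 698, 745 and 783 on the Myc+ arrays, a rise of 1.19 ± 0.19 (adjusted p = 2.31e-05). Igfbp6, Fgf7 and Hgf, named after their values were seen, were the other risers (1.78, 1.48 and 0.65).

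Of 30 Hox genes, which set position along the body, 15 rose (5 of 9 in a fit over genes at or above the median level) and 2 fell (1 without control replicate 1 or 2 or Myc+ replicate 2). Hoxc10 read 99.2, 93.7 and 117 on the control arrays and 279, 291 and 341 on the Myc+ arrays (1.42 ± 0.17, adjusted p = 4.54e-07), and Hoxa9 (1.54), Hoxb9 (1.09), Hoxb6 (1.70) and Hoxc8 (1.11) rose with it. Of 14 imprinted genes, 2 rose (4 with centred arrays and 4 with quantile normalization, and 4 without Myc+ replicate 3) and 7 fell. Over all genes, 17.6% rose and 18.7% fell. Peg10 read 134, 128 and 219 and then 1219, 1301 and 1013 (2.79 ± 0.24, adjusted p = 3.95e-09), Dlk1 rose by 0.94 ± 0.17 (adjusted p = 0.000144), and Mest (-1.80), Igf2 (-1.37) and Slc38a4 (-1.17) fell. Among DNA methylation and Polycomb genes, a list that also holds the demethylating enzyme Tet3, 8 of 19 rose and 2 fell. The methyltransferase Ezh1 fell by 1.17 ± 0.17 (adjusted p = 8.62e-06), and Suz12 (0.92), Eed (0.79), Bmi1 (0.98) and Tet3 (1.00) rose.

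Markers of other cell types were read because the Myc+ arrays had lost the epithelial ones. Of 17 fibroblast markers, 5 rose and 8 fell, and their summed intensity ran from 6958 to 8751 on control and from 6704 to 7223 on Myc+ arrays. The defining markers disagreed: Thy1 fell from 251 ± 28.1 to 21.5 ± 4.48 (-2.84 ± 0.20, adjusted p = 6.64e-11), Lum (-2.35) and Dcn (-1.37) fell, Cd34 rose (1.74 ± 0.18, adjusted p = 5.14e-08), and Pdgfra, at 188 ± 30.8 and 226 ± 47.2, did not pass (adjusted p = 0.361). Fibroblast transcripts such as Col1a1 and Vim were present in both groups. Endothelial markers (1 rose, 9 fell of 16) summed to 1372 to 1420.1 on control and 628 to 689 on Myc+ arrays, where Pecam1 averaged 2.59 and Cdh5 10.1. Pericyte and smooth muscle markers (0 rose, 8 fell of 12) went from 6166 to 7221 on control to 2428 to 2591 on Myc+ arrays.

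For the marker counts that follow, 17.6% of all genes rose and 18.7% fell. Leukocyte markers (1 rose, 0 to 2 without control replicate 2 or 3 or Myc+ replicate 1, 2 or 3, 4 fell of 18) summed to 1047 to 1154 on control and 617 to 671 on Myc+ arrays, with Ptprc at 25.7 and 37.3. Adipocyte markers summed to 739.9 to 834 and 1039 to 1253, skeletal muscle markers to 846 to 932 and 630.2 to 663, and Schwann and neural crest markers to 1152 to 1214 and 459 to 738. Of these, 2 rose (1 without control replicate 1 or 2 or Myc+ replicate 1 or 2) and 1 fell of 9 adipocyte genes, 2 (1 without control replicate 1 or 3 or Myc+ replicate 1) and 3 of 13 muscle genes and 0 (2 without Myc+ replicate 3) and 4 of 10 Schwann genes, where Sox10 (-3.30) and Tfap2b (-3.94), which mammary epithelium also uses, fell. Fewer cells of a type and less RNA per cell cannot be told apart in such bulk samples, and the part of a different mix of cells in the epithelial falls was not tested.

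The same retrovirus contrast in cells labelled with the p53 deletion alone, p53- Myc+ against p53- arrays, shares no array with the comparison above and was set beside it. There 6640 genes passed (33.3%), 2606 higher (13.1%) and 4034 lower (20.2%). The scaling sets that split: 39.2% of the passing genes were higher as deposited, 59.2% with the arrays centred and 56.2% with quantile normalization, which moved the median of all genes from -0.09 to 0.11 and 0.11. Of the genes that fell with both deletions, 69.2% also fell there, and these were 63.9% of the genes that fell there. Of the genes that rose, 37.7% also rose there, 50.9% of its risers. There, 11 of the 13 keratins and 17 of the 18 tight junction genes fell, and 31 of the 38 ribosome biogenesis genes rose. Cdh1 (-5.74 with and -5.48 without the Rb- label) and Epcam (-5.94 and -5.99) had differences of differences of -0.26 ± 0.23 (adjusted p = 0.481) and 0.05 ± 0.24 (adjusted p = 0.914), which does not show that they were equal. Rb1 carries no deletion label in the p53- and p53- Myc+ groups. It read 147, 181 and 157 on p53- arrays and 48.0, 26.8 and 34.4 on p53- Myc+ arrays, the latter below all p53- Rb- arrays. Within the arrays without Myc+, and within those with it, each Rb- array read below each array without that label. Between p53- Myc+ and p53- Rb- arrays that order was reversed, so the Rb1 intensity did not follow the Rb- label across groups. The contrasts rest on the labels alone.

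The difference between both contrasts was tested in the same fit. It passed in 2715 genes (13.6%), 1749 of them higher with the Rb- label (8.77%) and 966 lower (4.85%), against a median over all genes of 0.13. Higher calls were 64.4% as deposited, 45.2% with the arrays centred and 53.8% with quantile normalization, and the median went to 0.00 and -0.01. The count of passing genes was 1760 without p53- replicate 3 and 1793 without Myc+ replicate 2. In 270 of them the gene passed in both contrasts with opposite signs. The 5 highest were Efemp1, Igfbp4, the prostaglandin transporter Slco2a1, the adhesion receptor Adgrg2 and suprabasin, Sbsn. Efemp1 rose with both deletions (2.71) and fell with p53 alone deleted (-2.57), a difference of 5.28 ± 0.29 (adjusted p = 1.05e-10). Its mean was 126 ± 24.7 in p53-, 8.61 ± 7.69 in p53- Myc+, 141 ± 13.6 in p53- Rb- and 1016 ± 134 in p53- Rb- Myc+ arrays. Igfbp4 did the same (1.19 and -2.70, difference 3.89 ± 0.27, adjusted p = 2.32e-09). Slco2a1 fell in both, by less with the Rb- label (-1.54 against -5.38), and Adgrg2 (0.73 against -3.09) and Sbsn (0.77 against -2.63) rose against falls. Adgrg2 lost its rise with 1 added in place of 16 (adjusted p = 0.372).

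The 5 lowest were Mfap4, the transporter Slc43a3, Klhl13, the chemoattractant Rarres2 and the mucin Muc1. Mfap4 read 25.9 ± 7.80 in p53-, 138 ± 20.6 in p53- Myc+, 357 ± 152 in p53- Rb- and 9.10 ± 3.39 in p53- Rb- Myc+ arrays, so it rose with p53 alone deleted (1.89) and fell with both deletions (-3.83), a difference of -5.72 ± 0.33 (adjusted p = 2.57e-10). Slc43a3 fell by 5.17 ± 0.16 with both deletions and did not pass with p53 alone deleted (0.13, difference -5.30 ± 0.23, adjusted p = 1.66e-12). Klhl13 rose by 3.87 with p53 alone deleted against a fall with both deletions (-0.72), which did not pass without control replicate 3 (adjusted p = 0.0515). Muc1 already differed between the starting cultures, at 18.9 ± 5.86 in p53- and 497 ± 27.9 in p53- Rb- arrays, and ended low in both Myc+ groups (8.79 ± 4.15 and 10.2 ± 1.08). A difference between the contrasts can thus come from either pair of groups.

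Several lists held many of these calls, against 8.77% of all genes passing higher and 4.85% lower. Collagens passed lower with the Rb- label in 12 of 19 genes and higher in none (1 without p53- Myc+ replicate 2): with p53 alone deleted, 8 rose and 7 fell. Col1a2 was -1.06 with both deletions and 1.01 with p53 alone deleted (difference -2.07 ± 0.23, adjusted p = 2.89e-06). Its mean was 557 ± 13.4 in p53-, 1140.4 ± 140.0 in p53- Myc+, 1512 ± 141 in p53- Rb- and 719 ± 109.8 in p53- Rb- Myc+ arrays. Interferon-induced genes passed higher in 13 of 27 (7 with centred arrays, and 7 to 8 without p53- replicate 3 or control replicate 1 or 3 or Myc+ replicate 2), and 25 fell with p53 alone deleted. Over genes at or above the median level, which 5 of the 27 reached, the count was 0, and all 13 calls were in genes below that level. Rsad2 had means of 96.7 ± 2.58 in p53-, 26.4 ± 9.95 in p53- Myc+, 27.7 ± 7.59 in p53- Rb- and 28.3 ± 2.33 in p53- Rb- Myc+ arrays (difference 1.47 ± 0.25, adjusted p = 0.000478). Of elastic fibre, proteoglycan and matricellular genes, 14 of 24 passed lower and 3 higher. Mitosis genes passed higher in 9 of 36 and lower in none (2 to 4 with 64 added, genes at or above the median level, centred arrays, array weights, a trended robust prior or the compared arrays only). Smc4 read 762 ± 105 in p53-, 586 ± 69.96 in p53- Myc+, 259.9 ± 66.3 in p53- Rb- and 674 ± 121 in p53- Rb- Myc+ arrays, and Cenpe read 487 ± 57.7, 270.0 ± 64.4, 137 ± 59.7 and 358 ± 122 in the same order (difference 2.14 ± 0.38, adjusted p = 0.000699). In both genes the p53- Rb- mean was the lowest of the 4.

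**Figure D5:**
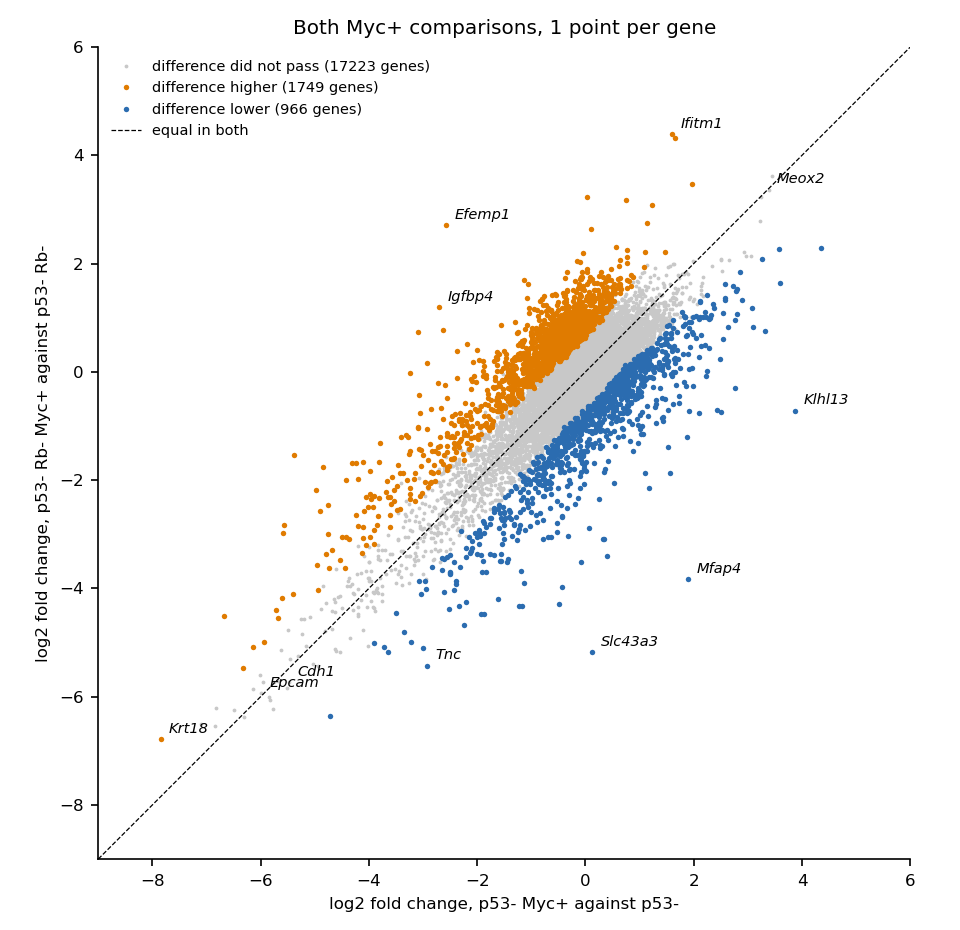
Log2 fold change in p53- Myc+ against p53- arrays (horizontal) and in p53- Rb- Myc+ against p53- Rb- arrays (vertical) for 19938 genes, grey where the difference of both did not pass and orange (higher with the Rb- label, 1749) or blue (lower, 966) where it did. Epithelial genes sit at the lower left near the diagonal, and Efemp1, Igfbp4, Mfap4 and Slc43a3 lie far from it.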

How the data were processed

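RNA from 15 samples (5 groups of 3) was hybridised to 15 one-colour Affymetrix arrays. The deposited values are linear intensities, 1 per probe set; per the submitters' processing notes they come from Affymetrix Expression Console 1.1. How probes were summarised, scan dates and detection calls are not given in the labels or file headers used here. Of 35556 probe sets, 21789 had 1 gene symbol in the platform annotation, 1621 had several and 12146 had none listed. For each of 19938 genes the probe set with the greatest average across all 15 arrays was kept. Intensities were taken as log2(value + 16), with no further scaling, and the fold changes are on that scale, so they understate changes of low genes. Group means were fitted over all 15 arrays with limma 3.58.1 in R 4.3.3 (lmFit, eBayes), and p-values were adjusted by Benjamini-Hochberg over all genes within a contrast, with 0.05 as the threshold. The fit was tested on simulated data.

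The 6 arrays and the 42 gene lists (930 of 990 entries measured) were chosen with earlier results of these data known. Named genes were Rb1 and Myc, the 12 highest and 12 lowest fold changes among genes that passed, had non-overlapping arrays and a mean level no lower than the median gene's, the 5 highest and 5 lowest differences between both Myc+ contrasts, per list the 5 members with the lowest p-values, and any member of the keratin, collagen, EMT, arrest, cyclin and MYC lists. Other genes were named after their values were seen: Acta2, Aurka, Bysl, Ccl2, Ccl7, Ccn2, Cenpe, Cldn8, Cxcl1, Cxcl5, Dcn, Esr1, Evpl, Fgf7, Foxa1, Hgf, Ifit1, Igfbp6, Il33, Jag2, Klf5, Mdm2, Mir17, Mir17hg, Mir18, Mir19a, Mir19b-1, Mir20a, Mmp19, Muc4, Nop2, Nop56, Odc1, Ogn, Pdgfra, Pes1, Pgr, Plk1, Pno1, Ptprc, Rsad2, Saa3, Sesn1, Spint1, Tjp1, Tpx2 and Tsr1. Alternatives were 1 or 64 added before log2, only genes at or above the median level, centred or quantile-normalized arrays, the mean of a gene's probe sets, array weights, a trended robust prior, a replicate block, the compared arrays only and each array left out. Trp53 and Cdkn1a were not analysed here. Promoters and mature microRNAs were read from RefSeq tables (GRCm38.p6).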

Additional observations from a re-analysis of the deposited data

Results flagged for a closer look

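The log2 fold change differed between p53- Rb- Myc+ against p53- Rb- and p53- Myc+ against p53- in 2715 genes (13.6%) by limma's test of the difference, and in 99 of the 260 genes the text names. Many of the named genes were chosen by their values in these data, so their share cannot be set against that of all genes. Positive values mean higher with the Rb- label. Values are given below for the 10 genes named by size of the difference and for 16 others chosen after their values were seen. In the epithelial group the difference was 2.48 for Krt19, 1.59 for Tjp1 and 1.99 for Klf5, which fell further or only with p53 alone deleted. Among matrix, mesenchymal and developmental genes it was 5.28 for Efemp1, 2.67 for Prg4, 2.79 for Ifitm1, 1.61 for Wt1, 2.11 for Cd34, -2.50 for Tnc, -2.07 for Col1a2, -2.26 for Pdgfra and -5.72 for Mfap4. Growth and cell cycle genes gave 1.43 for Ccne2, 1.70 for Smc4, 2.14 for Cenpe, 1.43 for Mir17 and 1.1 for Mir18. Other genes gave 3.89 for Igfbp4, 3.83 for Slco2a1, 3.83 for Adgrg2, 3.40 for Sbsn, 1.47 for Rsad2, -5.30 for Slc43a3, -4.58 for Klhl13, -3.81 for Rarres2 and -3.79 for Muc1.

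Outside the genes of the comparison, 13767 probe sets carry no single gene name. Of these, 2003 passed between p53- Rb- Myc+ and p53- Rb- arrays in a fit of their own, 1460 higher and 543 lower. Among the 19938 genes, 36.3% passed, 17.6% higher and 18.7% lower, so these probe sets passed less often.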

How the results depend on the processing

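The counts of genes passing in p53- Rb- Myc+ against p53- Rb- stayed within 1.5 times of 7246 under all 16 alternatives, although array weights raised the risers to 6079. Leaving out 1 array gave 5811 to 6799 passing genes. For p53- Myc+ against p53-, the genes that were higher came to 4173 with centred arrays and 4019 with quantile normalization, and those lower to 2569 over genes at or above the median level, where fewer genes were tested. The difference between both contrasts passed in 5397 genes with array weights (3499 higher, 1898 lower), 1096 were higher over genes at or above the median level, and leaving out 1 array gave 1760 to 3233 in all and 1096 to 1922 higher. The cause of the shifts under array weights and scaling was not tested. Over genes at or above the median level, which leaves out the lower members of a list, several lists had fewer falls: 7 in place of 14 epithelial regulators, 5 in place of 16 interferon-induced genes, 4 in place of 8 antigen presentation genes, 13 in place of 20 chemokines and cytokines, 12 in place of 20 Wnt and Notch genes, 2 in place of 7 imprinted genes and 3 in place of 9 endothelial markers. With array weights, rises came to 31 in place of 19 DNA replication genes, 14 in place of 9 cyclin and E2F genes and 10 in place of 6 translation genes. No named gene reversed among those that passed. Whether replicate numbers pair the arrays was not settled. Between control and Myc+ arrays, same-numbered deviations correlated at 0.0365, 0.0563 and 0.218, and differently numbered ones at -0.201 to 0.184. The fit with the number as a block passed 7344, 6697 and 2777 genes in the 3 contrasts, against 7246, 6640 and 2715 without it. Intensities near the array's bottom carry little information, so the folds of genes that end there depend on the 16 added.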

Other observations

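Gene families defined by their symbols, counted after the values were seen, gave the following values in p53- Rb- Myc+ against p53- Rb- arrays. Of 7 SMC genes (symbol Smc and a number), 6 rose and none fell, with a median of 1.22. Their proteins, those of cohesin and condensin among them, hold and fold chromosomes. With p53 alone deleted none of the 7 rose or fell and the median was -0.08. For the member Smc4, the p53- Rb- mean given above was below those of the p53-, p53- Myc+ and p53- Rb- Myc+ arrays. Of 65 cytosolic ribosomal protein genes, 10 rose and 2 fell with a median of 0.12, the median of all genes, whereas the ribosome biogenesis list had a median of 0.90. Of 13 Eph receptor genes, guidance receptors of neighbouring cells, 1 rose and 8 fell with a median of -0.93. Of 287 microRNA genes, 43 rose and 3 fell with a median of 0.20, close to that of the olfactory receptor genes. Over all genes, 17.6% rose and 18.7% fell. Rises were thus no more frequent among microRNA or ribosomal protein genes than over all genes.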
